A study of Mus musculus with 4 samples.

Results

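The effector or memory CD4 T cells of mouse tumour-draining lymph nodes described here were chosen by their transcripts. A barcode was a member if it held at least 300 genes, at most 10% mitochondrial counts, a unique molecular identifier (UMI, 1 counted transcript) of Cd4, none of Cd8a, Cd8b1, Foxp3, Cd79a, Tox2, Il21, Sostdc1 or Cxcr5, and a UMI in at least 2 of 5 genes, S100a4, Cxcr3, Itgb1, Ahnak and Ccr2. This gave 510 members of 48597 barcodes, with 137 in KO-DOX and 88 in WT-DOX, and 152 in KO-CTRL and 133 in WT-CTRL. Before the last step the gate held 6638 helper CD4 cells, of which 5048 had no UMI of any of the 5 genes and serve as the comparison (0-marker cells), and 1080 had a UMI of 1 of them.

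The study sorted T cells from the draining lymph nodes of mice inoculated with MC38-OVA, a mouse colon carcinoma line that expresses ovalbumin, and made 1 droplet library by a 5' kit for each of 4 groups. KO-DOX mice lacked PD-L1 in dendritic cells and received doxorubicin, an anthracycline that damages DNA, and WT-DOX mice had the control genotype and received doxorubicin. KO-CTRL mice had the knockout and the control treatment, and WT-CTRL mice had neither doxorubicin nor the deletion. All 4 groups bore tumours; the labels do not give age, dose, time, the promoter that drove the deletion or how many mice a library holds. Each group is 1 library, so groups could not be tested against each other and no p is given. Every interval is a 95% interval of counting error (exact Poisson for levels, exact Clopper-Pearson for shares), and none covers the spread between mice. Where no cell had a UMI, the limit given instead is 3 cells of the total, as a share. Levels are summed UMIs of a gene scaled to CPM, the count out of 1000000 summed UMIs of the same cells.

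CD4 T cells that have met antigen leave the naive state, gain adhesion molecules and chemokine receptors for entry into tissues, and can take up 1 of several helper programmes. Th1 cells use the transcription factor T-bet and make interferon gamma, Th2 cells use GATA3 and make the interleukins Il4, Il5 and Il13, and Th17 cells make Il17a. In lymph nodes such cells lie beside follicular helper cells, which the rule removes by 4 of their genes, and beside regulatory cells, which it removes by Foxp3. Most transcripts of lineage factors are rare, so a droplet library detects them in part of the cells that carry them.

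The members had the transcripts of T cells. The 10 genes of a T cell identity list (Cd3d, Cd3e, Cd3g, Trac, Trbc1, Trbc2, Lat, Cd28, Cd5 and Cd6) summed to 4599 to 5020.3 CPM in members and 4369 to 4489 CPM in 0-marker cells over the 4 libraries. No UMI of Cd3d, Cd3e or Cd3g was found in 7 KO-DOX, 0 WT-DOX, 1 KO-CTRL and 2 WT-CTRL members. One KO-DOX member held 278 MHC class II UMIs, 362 of Cd74 and 30 of Lyz2, and 1 WT-CTRL member held 78 class II UMIs; neither had a Cd3 UMI. The 16 genes of a dendritic and myeloid list summed to 2063 CPM in KO-DOX and 363 in WT-DOX, and 276 in KO-CTRL and 673 in WT-CTRL members, against 76.5 to 105 CPM in 0-marker cells; Ccl22 and Clec9a were at 0 in members. Of 10 B and plasma cell genes, Igkc, Ebf1 and Pax5 were at 0 in members, and the summed level of 215 to 249 CPM was nearly all Ighm. Igkc gave 0 UMIs in every barcode of the series, so its 0 in members says nothing about B cells. The gamma delta list summed to 2.33 to 24.3 CPM with Trdv4, Tcrg-C4 and Sox13 at 0, and the NKT list to 8.15 to 26.0 CPM with Trav11 and Trav11d at 0. Over all barcodes of the series Trav11 gave 4 UMIs and Trav11d 0, so their 0 in members says nothing about NKT cells.

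Depth and division set the members apart from the 0-marker cells as well. Members had medians of 3841, 3784, 4591.5 and 4687 UMIs in KO-DOX, WT-DOX, KO-CTRL and WT-CTRL, and 0-marker cells had medians of 2703.5 to 2934.5. A UMI of Mki67 or Top2a, genes of dividing cells, was found in 24.8% of KO-DOX, 25% of WT-DOX, 27.6% of KO-CTRL and 32.3% of WT-CTRL members, against 2.62% to 3.78% of 0-marker cells. In follicular cells, CD4 cells with 2 or more UMIs over the 4 follicular genes of the rule, the share was 20.1% to 28.9%. In CD4 cells with a Foxp3 UMI (Foxp3+ cells) it was 40% to 47.3%, so division was not particular to members. Members without such a UMI held 58.3% of the members' UMIs in KO-DOX and 44.9% in WT-DOX, and 51.6% in KO-CTRL and 48.9% in WT-CTRL, so every level below mixes dividing and other cells. Between 12.4% and 20.5% of the members in a library held a UMI of any of 8 B cell or myeloid genes or over 3 times the library's median UMIs, and they are called possible doublets. The other members held 65.9% of the members' UMIs in KO-DOX and 45.2% in WT-DOX, and 60.3% in KO-CTRL and 58.0% in WT-CTRL. Members with Mki67 or Top2a had medians of 6545 UMIs in KO-DOX and 13184.5 in WT-DOX, and 7083.5 in KO-CTRL and 6252 in WT-CTRL. Possible doublets can thus include single dividing cells, and this overlap was not tested. Library pairs shared 175 to 271 barcode sequences, 2 to 11 members in a pair carried a shared one, and 0 were a member in both.

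Of the 5 genes of the rule, Itgb1 and Ahnak chose most of the members. Itgb1, the beta subunit of integrins that bind fibronectin and VCAM1, was found in 87.8% of the 510 members, and Ahnak, a very large scaffold protein, in 81.0%. S100a4, a calcium-binding protein, was found in 37.6%, Cxcr3, the receptor for Cxcl9 and Cxcl10, in 32.7% and Ccr2, the receptor for Ccl2, in 15.7%. The pair Itgb1 and Ahnak was present in 355 members. S100a4 lies on chromosome 3 at 90603771 to 90606045 (GRCm38, plus strand), a neighbour of S100a6 at 90612882 to 90624181.

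At the threshold, 304 members had exactly 2 of the 5 genes, 145 had 3, 48 had 4 and 13 had all 5. Cells just inside, with 2 genes, numbered 78 in KO-DOX and 60 in WT-DOX, and 92 in KO-CTRL and 74 in WT-CTRL, and cells just outside, with 1 gene, numbered 227, 248, 308 and 297 in the same order. S100a6, which the rule did not use, was at 715 to 1377 CPM in members with 3 or more genes, 321 to 632 CPM in members with 2, 33.2 to 55.8 CPM in cells with 1 and 1.47 to 10.7 CPM in cells with 0, as ranges over the libraries. Igfbp4, a gene of naive CD4 cells, was at 0 to 28.8, 43.4 to 119.8, 313 to 522 and 499 to 680.1 CPM in the same 4 sets. Members with 2 genes stood between the cells on either side of them for both genes.

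Members made up 10.1% (8.54 to 11.8) of the gated helper CD4 cells in KO-DOX, 5.80% (4.68 to 7.10) in WT-DOX, 7.76% (6.62 to 9.04) in KO-CTRL and 7.36% (6.20 to 8.67) in WT-CTRL. The share was highest in KO-DOX and lowest in WT-DOX, and the libraries without doxorubicin lay between them. KO-DOX had 1.74 times the share of WT-DOX (1.34 to 2.25), and KO-CTRL had 1.05 times that of WT-CTRL (0.843 to 1.32). KO-DOX had 1.30 times the share of KO-CTRL (1.04 to 1.62), and WT-DOX had 0.788 times that of WT-CTRL (0.607 to 1.02). As shares of barcodes with a Cd4 UMI, these ratios were 1.21 (0.964 to 1.51) and 0.798 (0.613 to 1.04). As shares of all barcodes within the quality limits, they were 1.13 (0.895 to 1.42) and 0.682 (0.522 to 0.892). The KO ratio was 1.24 (0.992 to 1.55) with a Cd3 UMI required of members and 1.34 (1.05 to 1.70) without possible doublets. Whether its interval lay clear of 1 thus varied with the denominator and filter. The doxorubicin ratio in KO was 1.65 times that in WT (1.17 to 2.32), by counting error alone. With 3 or more of the 5 genes asked for, the KO-DOX to WT-DOX ratio was 2.35, and with Itgb1 left out of the rule the ratio of the doxorubicin ratios was 2.39. With at least 2 Cd4 UMIs asked for, WT-DOX had 1.03 times the share of WT-CTRL (0.713 to 1.497) and the ratio of the doxorubicin ratios was 1.21 (0.757 to 1.92), so the opposite directions in KO and WT were not seen there. Of all barcodes that passed the quality limits, members were 1.32% in KO-DOX and 0.708% in WT-DOX, and 1.17% in KO-CTRL and 1.04% in WT-CTRL.

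**Figure D1:**
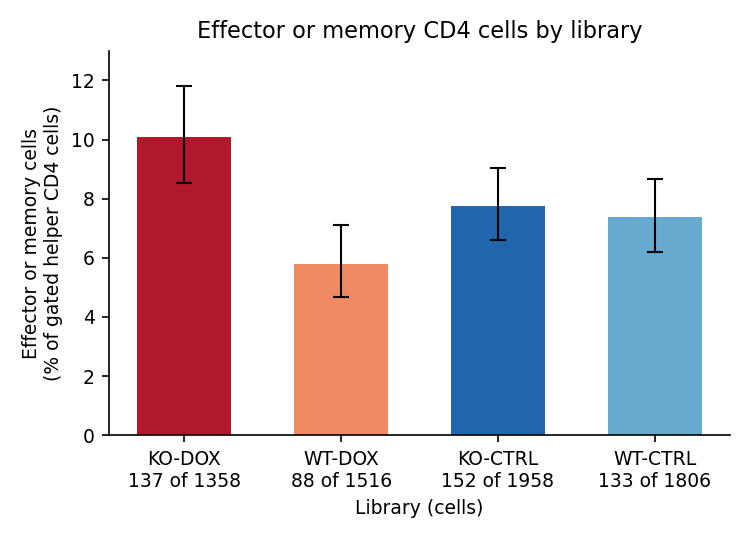
Share of gated helper CD4 cells (y axis, percent) that were effector or memory cells in each library (x axis, with the number of cells); bars are the shares and lines the exact 95% intervals of counting error. The KO-DOX bar at 10.1% and the WT-DOX bar at 5.80% lie on either side of the control treatment libraries at 7.76% and 7.36%.

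Genes of tissue-seeking memory cells were higher in members than in 0-marker cells, and genes of naive cells were lower. A gene was counted as higher or lower than in 0-marker cells where it differed at least 1.5-fold the same way, with intervals apart, in all 4 libraries at a mean of at least 20 CPM. Of 6076 genes tested, 625 were higher (10.3%) and 211 lower (3.47%), with all 14 genes of the rule left out and a median log2 difference of 0.11. The rule sorted the same cells, so these counts describe the gate and are no test of it. In bulk sums of this kind, fewer cells with a transcript and fewer transcripts in each cell cannot be told apart. Of a list of 28 memory and cytoskeletal genes, 26 were tested, 16 were higher and 2 lower, with a median log2 difference of 1.07. Summed, this list was at 9312 to 11863 CPM in members, 5822 to 6219 CPM in follicular cells and 10435.5 to 12083.5 CPM in Foxp3+ cells. Foxp3+ cells lay above members for this sum in every library but KO-DOX.

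S100a6, a calcium-binding protein of the same gene cluster as S100a4, had the largest median log2 difference of the genes at 50 CPM or more, 7.65. It was at 1058 CPM in KO-DOX and 464 in WT-DOX, and 802 in KO-CTRL and 678 in WT-CTRL, against 1.47 to 10.7 CPM in 0-marker cells. A UMI was found in 79 of 137 KO-DOX, 49 of 88 WT-DOX, 72 of 152 KO-CTRL and 78 of 133 WT-CTRL members. S100a10, a partner of annexin A2, ranged over 1030.4 to 1232 CPM in members and 188 to 216 CPM in 0-marker cells. Anxa2 itself was at 199.98 CPM in KO-DOX and 163 in WT-DOX, and 173 in KO-CTRL and 101 in WT-CTRL members, and in 0-marker cells at 2.16 to 6.04 CPM. The adhesion receptor Cd44, a marker of antigen-experienced T cells, was at 133 to 205 CPM in members and 19.3 to 27.6 CPM in 0-marker cells, and Il2rb, a chain of the receptors for interleukins 2 and 15, at 82.7 to 124 and 7.43 to 11.01 CPM. Members of all 4 libraries thus lay above the range of 0-marker cells for each of these genes. The 2 genes of this list that were lower were Bcl2, an inhibitor of cell death, and Ly6c1, a surface protein. Bcl2 was at 77.1 CPM in KO-DOX and 50.4 in WT-DOX, and 71.6 in KO-CTRL and 58.2 in WT-CTRL members, against 140.1 to 216 CPM in 0-marker cells, and Ly6c1 at 1.16 to 15.7 against 116 to 149.9 CPM. Il7r, the receptor that keeps resting T cells alive, did not meet the limits, with 380.0 CPM in KO-DOX and 396 in WT-DOX, and 263 in KO-CTRL and 277 in WT-CTRL members, and 405 to 633 CPM in 0-marker cells.

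All 16 naive genes were tested, and 12 were lower and 0 higher in members, with a median log2 difference of -1.34. The summed naive list was at 3211 to 3612 CPM in members and 7822 to 8226 CPM in 0-marker cells. Follicular cells had 3169 to 3612 CPM and Foxp3+ cells 2572 to 2938 CPM, so members shared the lower level with both. Igfbp4 was at 24.3 CPM in KO-DOX and 86.8 in WT-DOX, and 26.8 in KO-CTRL and 27.9 in WT-CTRL members, against 499 to 680.1 CPM in 0-marker cells, and 27 of the 50 WT-DOX UMIs came from 1 cell. Lef1, a transcription factor of naive T cells, was at 177 to 234 CPM in members and 975 to 1089 CPM in 0-marker cells, and Bach2, which restrains effector genes, at 80.5 to 114 and 354 to 399.8 CPM. The lymph node homing receptor Ccr7 was at 254 to 301 against 590.3 to 712 CPM, and the egress receptor S1pr1 at 184 to 228 against 401 to 481 CPM.

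Other genes of the largest differences were mostly those of division. Mki67 was at 243 CPM in KO-DOX and 314 in WT-DOX, and 214 in KO-CTRL and 296 in WT-CTRL members, against 2.41 to 15.3 CPM in 0-marker cells, and all 13 tested genes of G2 and M phase and 10 of 14 of S phase were higher, with 0 lower. Among the 12 largest were Ube2c, Birc5, Ccna2, Pclaf and the histone genes Hist1h3c, Hist1h2ab and Hist1h1b. Gzmb, the protease granzyme B, was at 134 CPM in KO-DOX and 122 in WT-DOX, and 85.0 in KO-CTRL and 80.3 in WT-CTRL members, from 14, 6, 9 and 12 cells in that order, against 0.240 to 2.64 CPM. Ifitm2, an interferon-induced membrane protein, was at 247 CPM in KO-DOX and 50.4 in WT-DOX, and 153 in KO-CTRL and 41.9 in WT-CTRL members. The largest differences downward beside those named were those of Atp1b1, Pik3ip1, Patj, Ifngr2, Frat2, Rras2, Dusp10 and Il4ra, with median log2 differences from -3.17 for Atp1b1 to -2.03 for Il4ra.

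Without cells that held Mki67 or Top2a, on both sides, 316 of 5986 genes were higher (5.28%) and 64 lower (1.07%), and 269 and 62 of these were among the 625 and 211. The memory and naive lists kept their side: 14 of 25 memory genes were higher and 2 lower, and 10 of 16 naive genes were lower. S100a6 had a median log2 difference of 8.11 in those cells and Igfbp4 of -3.57, while 0 of 7 S phase genes tested were higher and 0 G2 and M phase genes reached the level for testing. Beside S100a6, the largest differences upward there were those of Penk, Il2, Areg, Bhlhe40, Ccl5, Cd74, Nrp1, Maf, Fam129a, Tnfrsf4 and Tigit.

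**Figure D2:**
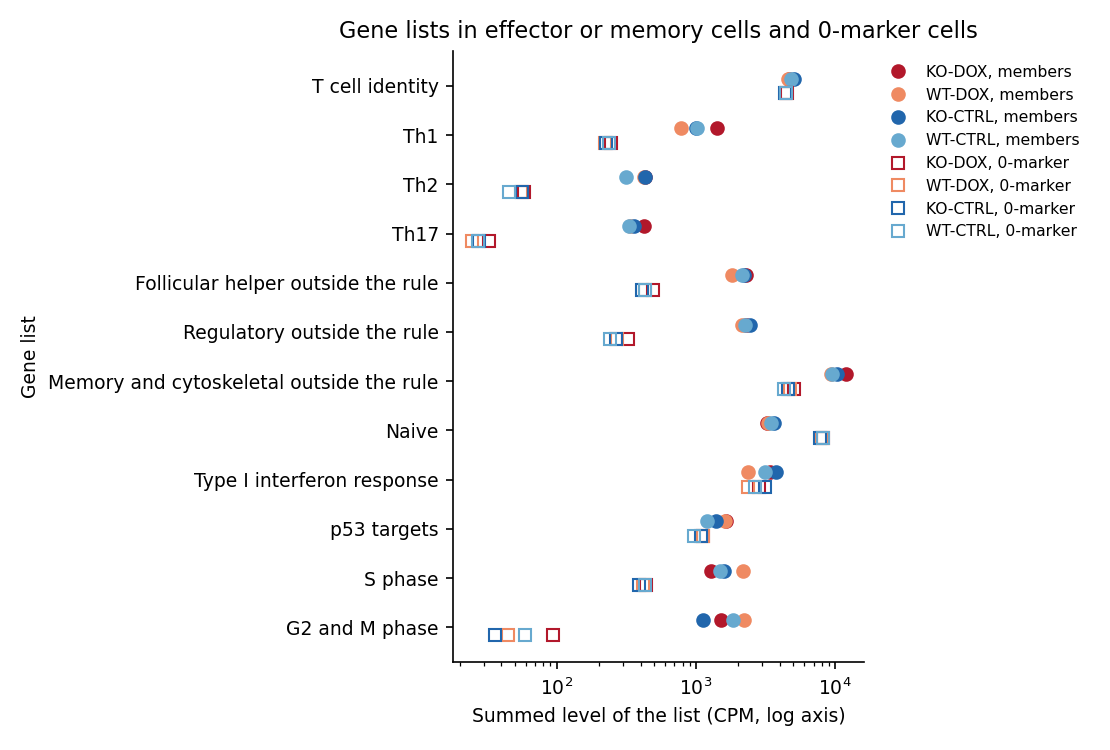
Summed level of the genes of each list (x axis, CPM, log scale) in effector or memory cells (filled circles, members) and 0-marker cells (open squares), 1 point for each library; lists run down the y axis. T cell identity genes lie together, the naive list lies to the left in members, and the helper, regulatory, memory and division lists lie to the right.

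Genes of the Th1 programme were found in members of every library. Of 16 Th1 genes 10 were tested, and 8 were higher than in 0-marker cells and 0 lower, with a median log2 difference of 2.66. Tbx21, which encodes T-bet (chromosome 11, 97098071 to 97115331, GRCm38, minus strand), gave 13 UMIs in KO-DOX and 7 in WT-DOX, and 15 in KO-CTRL and 20 in WT-CTRL members, or 18.6 CPM in KO-DOX and 12.2 in WT-DOX, and 16.8 in KO-CTRL and 23.3 in WT-CTRL. They came from 9 cells in KO-DOX and 7 in WT-DOX, and 14 in KO-CTRL and 18 in WT-CTRL. In 0-marker cells it was at 0 to 0.438 CPM, in follicular cells (CD4 cells with 2 or more UMIs over the 4 follicular genes) at 10.04 to 15.5 CPM and in Foxp3+ cells at 1.21 to 12.8 CPM. A Tbx21 UMI was found in 9.41% of members and 0.0594% of 0-marker cells, and with every cell thinned to 2000 UMIs in 3.59% of 474 members and 0.0474% of 4215 0-marker cells, those with enough UMIs.

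Ifng, interferon gamma itself (chromosome 10, 118441046 to 118445892), was at 92.8 CPM in KO-DOX and 34.7 in WT-DOX, and 70.5 in KO-CTRL and 96.6 in WT-CTRL members. These came from 23 cells in KO-DOX and 10 in WT-DOX, and 26 in KO-CTRL and 24 in WT-CTRL. WT-DOX was the lowest of the 4, and 0-marker cells had 0 to 3.55 CPM. Follicular cells, which the rule set aside, had 44.7 to 96.9 CPM, a range that overlaps that of members. Il18r1, a chain of the interleukin 18 receptor, was at 120.0 CPM in KO-DOX and 69.5 in WT-DOX, and 68.2 in KO-CTRL and 86.2 in WT-CTRL. Il18rap, its partner chain and a neighbour on chromosome 1, was at 30.0 CPM in KO-DOX and 19.1 in WT-DOX, and 11.2 in KO-CTRL and 19.8 in WT-CTRL. Il12rb2, the inducible chain of the interleukin 12 receptor, was at 11.6 to 21.4 CPM in members and 3.94 to 5.28 CPM in 0-marker cells. Stat4, which carries the interleukin 12 signal, was at 108 to 164 CPM against 87.6 to 109.6 CPM and did not meet the limits, whereas Runx3, a partner of T-bet, was at 55.6 to 74.3 against 25.9 to 29.3 CPM.

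Hopx, a small homeodomain protein of effector T cells, was at 270.0 CPM in KO-DOX and 175 in WT-DOX, and 244 in KO-CTRL and 276 in WT-CTRL members, and at 24.1 to 34.5 CPM in 0-marker and 293 to 372 CPM in Foxp3+ cells. Cxcr6, a receptor for Cxcl16 that marks tissue effector cells, was at 124 CPM in KO-DOX and 57.3 in WT-DOX, and 115 in KO-CTRL and 60.5 in WT-CTRL members, against 0.586 to 1.44 CPM in 0-marker cells, and KO-DOX and KO-CTRL lay above WT-DOX and WT-CTRL. The chemokines Ccl4 and Ccl5 came from few cells: 105 of 106 Ccl4 UMIs in KO-DOX came from 1 cell, as did 73 of 116 Ccl5 UMIs there and 42 of 61 in KO-CTRL, and Ccl3 gave 5 UMIs in KO-DOX and 0 in WT-DOX, and 1 in KO-CTRL and 0 in WT-CTRL. Tnf was at 72.8 to 87.3 CPM in members and 25.9 to 41.9 CPM in 0-marker cells. Il2, the T cell growth factor, was at 40.0 CPM in KO-DOX and 102 in WT-DOX, and 53.7 in KO-CTRL and 48.9 in WT-CTRL, with 39 of the 59 UMIs of WT-DOX in 1 cell. Fasl, the ligand of the death receptor Fas, was at 11.2 to 24.3 CPM in members and 9.59 to 12.02 CPM in 0-marker cells.

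Of the Th2 genes, the factor Gata3 and chemokine receptors were found in more members than the cytokines. Of 12 Th2 genes 4 were tested, Gata3, Ccr4, Ccr8 and Areg, and all 4 were higher than in 0-marker cells, with a median log2 difference of 3.84. Gata3 (chromosome 2, 9857078 to 9890034, minus strand) was at 54.3 CPM in KO-DOX and 59.0 in WT-DOX, and 81.7 in KO-CTRL and 50.1 in WT-CTRL members, against 25.4 to 29.3 CPM in 0-marker cells. It was found in 30 cells in KO-DOX and 21 in WT-DOX, and 53 in KO-CTRL and 28 in WT-CTRL. Follicular cells had 48.3 to 66.0 CPM and Foxp3+ cells 58.3 to 72.6 CPM, ranges that overlap that of members. A Gata3 UMI was found in 25.9% of members and 7.35% of 0-marker cells, or 13.3% and 5.27% after thinning.

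Il4 and Il13 lie together on chromosome 11, from 53602982 to 53634702 on the minus strand. Il4 gave 7 UMIs in KO-DOX and 16 in WT-DOX, and 14 in KO-CTRL and 2 in WT-CTRL members, from 5 cells in KO-DOX and 4 in WT-DOX, and 6 in KO-CTRL and 2 in WT-CTRL. The level of 2.33 to 27.8 CPM lay below the 69.1 to 85.8 CPM of follicular cells in every library. Il13 gave 2 UMIs in KO-DOX and 38 in WT-DOX, and 6 in KO-CTRL and 0 in WT-CTRL, and 33 of those in WT-DOX came from 1 cell. Il5, Ptgdr2 (a prostaglandin D2 receptor) and Pparg (a nuclear receptor) were at 0 in all 510 members, which at 3 cells of the total allows up to 1.97% of KO-CTRL and 3.41% of WT-DOX members with a UMI. Over all barcodes of the series these genes gave only 2, 18 and 13 UMIs in that order. Il1rl1, the interleukin 33 receptor ST2, was at 6.95 to 12.9 CPM in members and 0 to 0.219 CPM in 0-marker cells, and Il17rb, a receptor for interleukin 25, gave 1 UMI, in WT-DOX.

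The chemokine receptors Ccr4 and Ccr8, which Th2 and regulatory cells carry, were both found in members. Ccr4 was at 42.9 CPM in KO-DOX and 83.3 in WT-DOX, and 49.2 in KO-CTRL and 51.2 in WT-CTRL. Ccr8 was at 78.6 CPM in KO-DOX and 48.6 in WT-DOX, and 67.1 in KO-CTRL and 73.4 in WT-CTRL. In 0-marker cells Ccr4 was at 1.42 to 1.53 and Ccr8 at 2.40 to 6.45 CPM, and in Foxp3+ cells Ccr4 was at 55.9 to 95.5 and Ccr8 at 109 to 175 CPM. Areg, amphiregulin, a growth factor for epithelium, was at 199 CPM in KO-DOX and 108 in WT-DOX, and 170.0 in KO-CTRL and 106 in WT-CTRL members, 1.44 to 13.9 CPM in 0-marker cells and 146 to 187 CPM in follicular cells. Cd200r1, an inhibitory receptor of Th2 and myeloid cells, was at 19.8 to 32.9 CPM in members and 9.95 to 14.7 CPM in 0-marker cells.

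Th17 genes were found in few members. Il17a, the interleukin of these cells (chromosome 1, 20730905 to 20734496), gave 69 UMIs in KO-DOX and 2 in WT-DOX, and 54 in KO-CTRL and 0 in WT-CTRL. They came from 4 cells in KO-DOX and 1 in WT-DOX, and 1 in KO-CTRL and 0 in WT-CTRL, and 1 KO-DOX cell held 51 of them and 1 KO-CTRL cell 54. Its neighbour Il17f gave 5 UMIs in KO-DOX and 0 in WT-DOX, and 8 in KO-CTRL and 1 in WT-CTRL. Il22 gave 0 UMIs in KO-DOX and 0 in WT-DOX, and 6 in KO-CTRL and 2 in WT-CTRL. Il17re, a chain of the receptor for Il17c, gave 3 UMIs in KO-DOX and 0 in WT-DOX, and 1 in KO-CTRL and 0 in WT-CTRL. Il23r, the interleukin 23 receptor, gave 3 UMIs in KO-DOX and 2 in WT-DOX, and 10 in KO-CTRL and 3 in WT-CTRL. Il1r1, the interleukin 1 receptor, gave 3 UMIs in KO-DOX and 0 in WT-DOX, and 3 in KO-CTRL and 4 in WT-CTRL.

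The Th17 genes with higher levels are shared with other CD4 cells. Rora, a nuclear receptor of T cells, was at 171 CPM in KO-DOX and 207 in WT-DOX, and 198 in KO-CTRL and 199 in WT-CTRL members, against 17.3 to 18.8 CPM in 0-marker cells, 139 to 200.4 CPM in follicular cells and 201 to 233 CPM in Foxp3+ cells. Rora was found in 52.2% of members and 4.71% of 0-marker cells, or 31.0% and 3.06% after thinning. Ahr, the aryl hydrocarbon receptor, was at 30.2 to 57.1 CPM in members and 3.81 to 8.17 CPM in 0-marker cells. Rora and Ahr were the 2 of 3 tested Th17 genes counted as higher, and Il17a was not. Ccr6, the receptor for Ccl20, was at 14.3 CPM in KO-DOX and 20.8 in WT-DOX, and 13.4 in KO-CTRL and 15.1 in WT-CTRL members, and 0 to 0.480 CPM in 0-marker cells. Tmem176a, a membrane protein, was at 30.0 CPM in KO-DOX and 22.6 in WT-DOX, and 5.59 in KO-CTRL and 10.5 in WT-CTRL. Its relative Tmem176b was at 42.9 CPM in KO-DOX and 19.1 in WT-DOX, and 10.1 in KO-CTRL and 22.1 in WT-CTRL, lowest in KO-CTRL as was Tmem176a. Ltb4r1, a leukotriene B4 receptor, was at 3.36 to 13.9 CPM.

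Of the other helper genes, Il9 was at 0 in every barcode of the series and Spi1, the factor PU.1 linked to Il9-producing cells, gave 4 UMIs in KO-DOX and 1 in WT-DOX, and 0 in KO-CTRL and 1 in WT-CTRL. Il10, the inhibitory cytokine, was at 51.4 CPM in KO-DOX and 22.6 in WT-DOX, and 17.9 in KO-CTRL and 36.1 in WT-CTRL members, against 0 to 0.438 CPM in 0-marker cells and 17.3 to 110.5 CPM in Foxp3+ cells. It came from 13 cells in KO-DOX and 5 in WT-DOX, and 7 in KO-CTRL and 8 in WT-CTRL. Lag3, an inhibitory receptor for MHC class II, was at 98.6 CPM in KO-DOX and 64.2 in WT-DOX, and 71.6 in KO-CTRL and 58.2 in WT-CTRL members, against 1.20 to 3.20 CPM in 0-marker cells. Havcr2, the inhibitory receptor TIM-3, was at 78.6 CPM in KO-DOX and 33.0 in WT-DOX, and 58.2 in KO-CTRL and 30.3 in WT-CTRL, against 0.219 to 0.586 CPM. Prdm1, the gene of the repressor Blimp-1, was at 34.9 to 53.7 CPM against 2.16 to 5.57 CPM, and Tgfb1 at 189 to 245 against 117 to 133 CPM. Itga2, the collagen-binding integrin chain CD49b, was at 6.71 to 13.9 CPM in members. All 4 tested genes of this list (Prdm1, Lag3, Havcr2 and Tgfb1) were higher than in 0-marker cells.

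**Figure D3:**
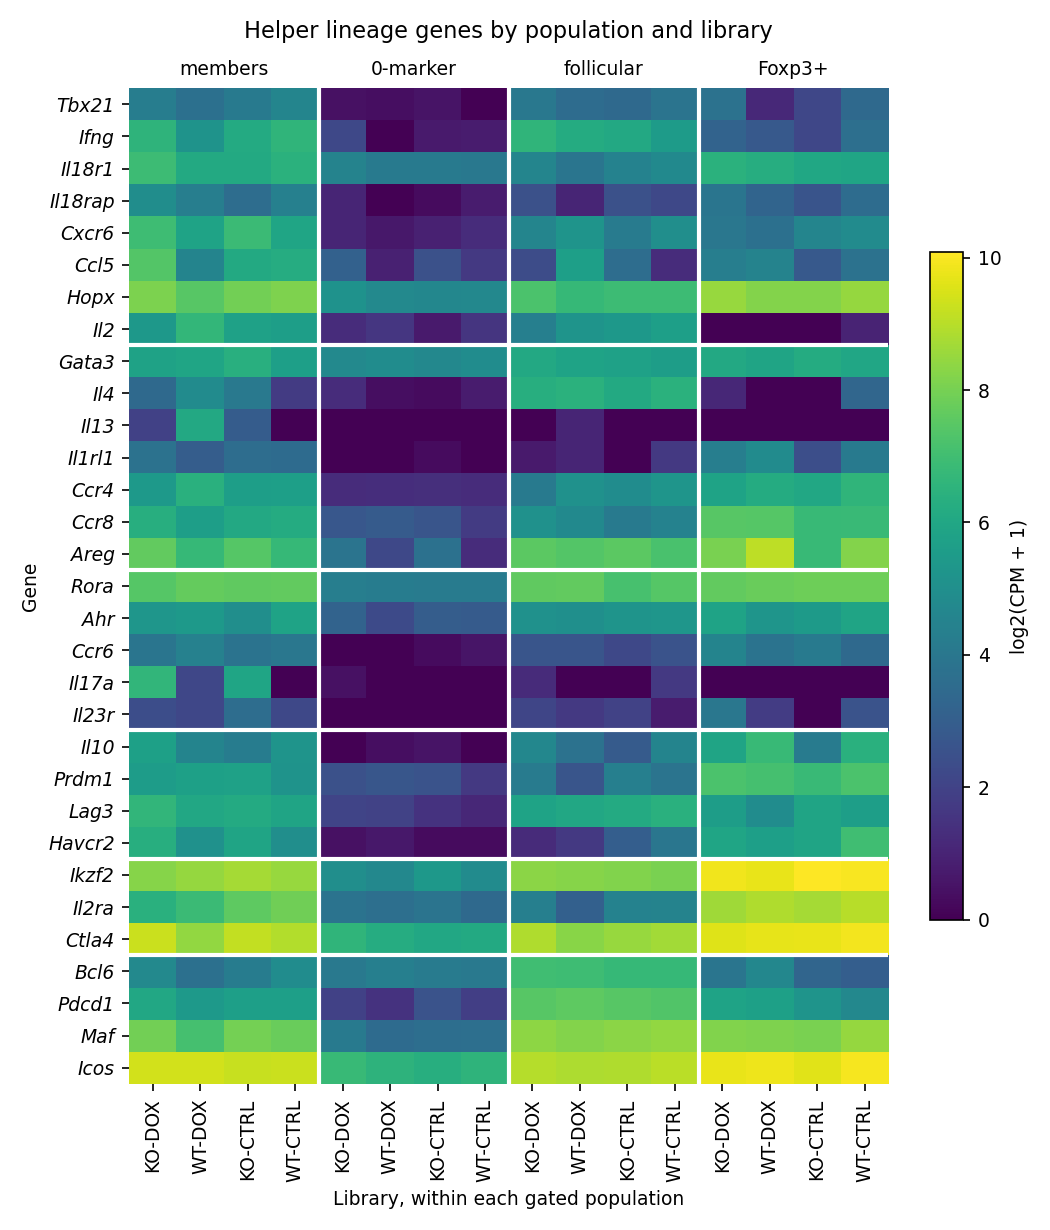
Level of helper lineage genes (y axis; Th1, Th2, Th17, other helper, regulatory and follicular genes from top to bottom) as log2 of CPM plus 1 in 4 gated populations and 4 libraries each (x axis). Members carry genes of every programme above the 0-marker cells, Foxp3+ cells exceed members for Ikzf2, Il2ra and Ctla4, follicular cells for Bcl6, Pdcd1 and Il4, and Il13 and Il17a are at or near 0 in most columns.

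Members carried regulatory and follicular genes in spite of the gates against Foxp3 and 4 follicular genes. All 10 tested genes of a 14-gene regulatory list were higher than in 0-marker cells, with a median log2 difference of 3.49. Ikzf2, the transcription factor Helios of regulatory cells, was at 303 CPM in KO-DOX and 359 in WT-DOX, and 426 in KO-CTRL and 369 in WT-CTRL members, 25.2 to 40.3 CPM in 0-marker cells, 266 to 322 CPM in follicular cells and 861 to 1082 CPM in Foxp3+ cells. Il2ra, the interleukin 2 receptor alpha chain CD25, was at 82.8 CPM in KO-DOX and 116 in WT-DOX, and 188 in KO-CTRL and 236 in WT-CTRL members, and 397 to 508 CPM in Foxp3+ cells, and 1 cell held 41 of 168 UMIs in KO-CTRL and 1 cell 61 of 203 in WT-CTRL. Ctla4, an inhibitory receptor for CD80 and CD86, was at 619 CPM in KO-DOX and 344 in WT-DOX, and 563 in KO-CTRL and 482 in WT-CTRL members, against 65.9 to 96.3 CPM in 0-marker cells. Itgae, the integrin chain CD103 that binds E-cadherin, was at 62.5 to 74.5 CPM in members, 0.293 to 5.33 CPM in 0-marker cells, 1.44 to 6.06 CPM in follicular cells and 118 to 204 CPM in Foxp3+ cells. Members thus lay above follicular cells and below Foxp3+ cells in every library for Itgae. A Foxp3+ cell whose Foxp3 transcript was not captured would pass the rule; its part in these levels was not tested.

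Of 10 tested genes of a 14-gene follicular list outside the rule, 9 were higher than in 0-marker cells and 0 lower. Bcl6, the master factor of follicular helper cells, was at 25.7 CPM in KO-DOX and 12.2 in WT-DOX, and 17.9 in KO-CTRL and 29.1 in WT-CTRL members, beside 15.6 to 19.3 CPM in 0-marker cells and 107 to 125 CPM in follicular cells, and Ascl2, another follicular factor, gave 2 UMIs, both in KO-CTRL. Pdcd1, which encodes PD-1, was at 64.3 CPM in KO-DOX and 41.7 in WT-DOX, and 50.3 in KO-CTRL and 51.2 in WT-CTRL members, 1.76 to 5.03 CPM in 0-marker cells and 163 to 189.6 CPM in follicular cells. Icos, a costimulatory receptor, was at 609 to 679 CPM in members, above the 452 to 521 CPM of follicular cells. Maf, a factor of Il10 and Il21 transcription, was at 135 to 247 CPM in members, below the 294 to 352 CPM of follicular cells. Cd274, which encodes PD-L1, was at 133 CPM in KO-DOX and 78.1 in WT-DOX, and 149 in KO-CTRL and 126 in WT-CTRL members; the knockout was in dendritic cells, so T cell Cd274 is no check of the genotype label.

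Read cell by cell, some members carried transcripts of more than 1 programme. A member was given to a set by a UMI of any of its genes: Tbx21, Ifng, Il12rb2 or Il18rap for Th1, Gata3, Il4, Il13 or Il1rl1 for Th2, Il17a, Il17f, Il23r or Ccr6 for Th17, Il2ra, Ikzf2, Lrrc32 or Ikzf4 for regulatory, and Bcl6, Pdcd1 or Ascl2 for follicular. The Th1 set held 154 members (30.2%), the Th2 set 151 (29.6%), the Th17 set 46 (9.02%), the regulatory set 277 (54.3%) and the follicular set 128 (25.1%). A UMI of none of the 5 sets was found in 114 members (22.4%). Of Th1, Th2 and Th17, 2 or more sets were found in 75 members (14.7%), 0.119% of 0-marker cells, 8.86% of follicular cells and 13.6% of Foxp3+ cells. Those members were deep, with medians of 5084 to 6990.5 UMIs over the libraries. After thinning to 2000 UMIs the Th1 set held 17.7% of members, 0.973% of 0-marker cells, 9.69% of follicular cells and 4.22% of Foxp3+ cells. The Th2 set held 16.7% of members, 5.34% of 0-marker cells, 21.3% of follicular cells and 17.9% of Foxp3+ cells. For this set members stood above 0-marker cells but not above follicular or Foxp3+ cells. The Th17 set held 5.27%, 0.0949%, 1.56% and 2.98% in the same order. The regulatory set held 39.2% of members, 4.82% of 0-marker cells, 42.1% of follicular cells and 85.4% of Foxp3+ cells after thinning, and 0.0960% of CD8 cells fell in the Th17 set.

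**Figure D4:**
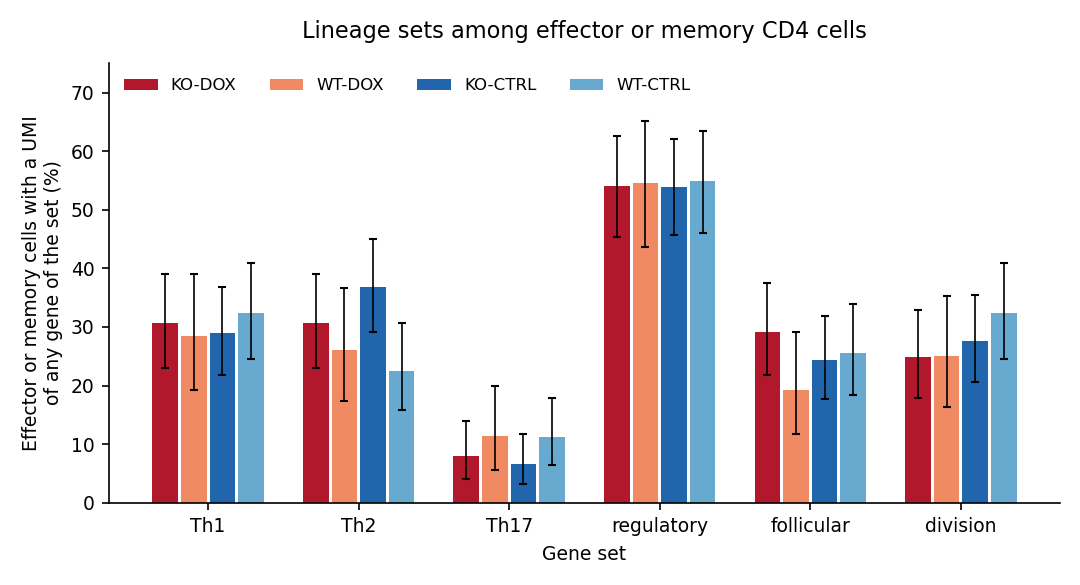
Share of effector or memory cells in each library (y axis, percent) with a UMI of any gene of each set (x axis; division is Mki67 or Top2a); bars are shares and lines exact 95% intervals of counting error. The intervals of the 4 libraries overlap in every set, and the regulatory set lies between 53.9% and 54.9% in all 4.

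The intervals of the 4 libraries overlapped for each set. The Th1 set held 30.7% of KO-DOX, 28.4% of WT-DOX, 28.9% of KO-CTRL and 32.3% of WT-CTRL members, and the regulatory set 54.0%, 54.5%, 53.9% and 54.9% in the same order. The Th2 set had the widest range of the Th1, Th2 and Th17 sets, with 30.7% of KO-DOX, 26.1% of WT-DOX, 36.8% of KO-CTRL and 22.6% of WT-CTRL members. The Th1 and Th2 sets shared 55 members. Th2 genes were found in 35.7% of the Th1 set, beside 29.6% of all members. Th1 genes were found in 36.4% of the Th2 set, beside 30.2% of all members. The Th1 and Th17 sets shared 6, of 154 and 46 members. Regulatory genes were found in 65.6% of the Th1 set and 65.2% of the Th17 set, beside 54.3% of all members. Depth differed between the sets: the 235 members with none of the Th1, Th2 and Th17 genes had a median of 3451 UMIs, those with Th1 genes alone 5234 and those with Th17 genes alone 3059.

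Some genes that did not define the sets had unlike levels in them. Over the 94 members with Th1 genes and none of Th2 or Th17, Nkg7, a granule protein of cytotoxic cells, was at 335 CPM (23.8 to 605), as level over the 4 libraries with the lowest and highest library in brackets. It was at 74.3 CPM (6.99 to 113) in the 81 members with Th2 genes alone and 65.5 CPM (5.02 to 95.6) in the 235 with none. No UMI of Nkg7 was found in the 25 members with Th17 genes alone, which allows a share of up to 12%. Rora was at 370.4 CPM (349 to 397) with Th17 genes alone, beside 161 CPM (149 to 177) with Th1 genes, 178 CPM (112 to 397) with Th2 genes and 185 CPM (143 to 229) with none, and in the first of these sets every library lay above the ranges of the Th1 set and of the cells with none. A UMI of Tmem176b was found in 36.0% of the Th17 cells, 6.38% of the Th1 cells and 8.64% of the Th2 cells. Il7r was at 693 CPM (188 to 1814) with Th17 genes, 492 CPM (382 to 628) with none, 247 CPM (169.9 to 538) with Th2 genes and 198 CPM (145 to 296) with Th1 genes.

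Part of a list of cytokines and TNF family ligands was higher in members. Of 24 genes 12 were tested, and 8 were higher than in 0-marker cells and 0 lower: Ifng, Il2, Tnf, Areg and Tgfb1, which the helper lists also hold, and Tnfsf8, Tnfsf11 and Penk. Tnfsf8, the ligand of CD30, was at 279 to 420.3 CPM in members and 42.0 to 61.8 CPM in 0-marker cells, and Tnfsf11, the ligand RANKL, at 155 to 202 and 15.6 to 20.96 CPM. Penk, the opioid precursor proenkephalin, was at 49.99 CPM in KO-DOX and 108 in WT-DOX, and 32.4 in KO-CTRL and 54.7 in WT-CTRL members. It came from 7 cells in KO-DOX and 5 in WT-DOX, and 7 in KO-CTRL and 7 in WT-CTRL. Cd40lg, the helper ligand for CD40, was at 149.9 to 217 CPM in members and 95.9 to 128 CPM in 0-marker cells and did not meet the limits. Csf2, which encodes GM-CSF, gave 17 UMIs in KO-DOX and 2 in WT-DOX, and 2 in KO-CTRL and 0 in WT-CTRL, with 8 of those in KO-DOX in 1 cell.

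Among cytotoxic genes, Gzmb and Nkg7 were the 2 of 4 tested that were higher than in 0-marker cells. Nkg7 was at 307 CPM in KO-DOX and 36.5 in WT-DOX, and 169 in KO-CTRL and 113 in WT-CTRL members, and WT-DOX lay below the other libraries. It was found in 37 cells in KO-DOX and 9 in WT-DOX, and 34 in KO-CTRL and 23 in WT-CTRL. Prf1, which encodes perforin, gave 5 UMIs in KO-DOX and 2 in WT-DOX, and 0 in KO-CTRL and 6 in WT-CTRL. Gzma, granzyme A, gave 1 UMI, in WT-CTRL. Klrd1, the killer lectin-like receptor CD94, was at 54.3 CPM in KO-DOX and 5.21 in WT-DOX, and 14.5 in KO-CTRL and 27.9 in WT-CTRL. Klrc1, its partner NKG2A, was at 52.9 CPM in KO-DOX and 3.47 in WT-DOX, and 8.95 in KO-CTRL and 20.96 in WT-CTRL. Both were highest in KO-DOX. Ncr1, a marker of natural killer cells, was at 0 and gave only 18 UMIs over all barcodes of the series. Tyrobp, an adaptor of natural killer and myeloid cells, gave 27 UMIs in KO-DOX and 0 in WT-DOX, and 0 in KO-CTRL and 3 in WT-CTRL, with 22 of those in KO-DOX in 1 cell. The type I interferon list showed 1 of 20 tested genes higher (Ifi27l2a) and 3 lower (Slfn1, Ifi206 and Ifi213), with a median log2 difference of -0.37. Of 13 early T cell receptor response genes, Nr4a2 and Fosb were higher and Jun lower.

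Between libraries, a gene was counted where it differed at least 1.5-fold with intervals apart, at a mean of at least 20 CPM and with a UMI in at least 10 cells of the higher library. KO-DOX over KO-CTRL gave 62 genes higher (1.01% of 6145) and 45 lower (0.732%), in all 1.74%. WT-DOX over WT-CTRL gave 66 higher (1.07% of 6162) and 67 lower (1.09%), in all 2.16%. KO-CTRL over WT-CTRL gave 42 higher (0.682% of 6159) and 62 lower (1.01%), in all 1.69%. KO-DOX over WT-DOX gave 98 higher (1.61% of 6074) and 97 lower (1.6%), in all 3.21%. Counting intervals assume independent UMIs, while a few large cells gave many of these counts: 13, 20, 19 and 25 genes in that order also met the limits with a Cd3 UMI required, without Mki67 or Top2a cells and without possible doublets. The comparisons share libraries, so they are not independent of each other.

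With doxorubicin in the knockout, Nkg7 met the limits in all 4 of these settings. Nkg7 was at 307 CPM (267 to 351) in KO-DOX and 169 CPM (143 to 198) in KO-CTRL members (log2 0.86). Il10 was at 51.4 CPM (36.0 to 71.2) in KO-DOX and 17.9 CPM (10.2 to 29.1) in KO-CTRL members (log2 1.47), and without dividing cells it no longer met the limits at 1.06. Irf4, induced by antigen receptor signals, was lower at 35.7 CPM (23.1 to 52.7) in KO-DOX against 78.3 CPM (61.0 to 98.9) in KO-CTRL, and did not meet the limits without dividing cells.

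The other genes with the largest differences in that comparison rested more on single cells. Cd74, the class II invariant chain, was at 1208 CPM in KO-DOX and 188 CPM in KO-CTRL members, with 362 of 846 KO-DOX UMIs in 1 cell, and its log2 fold of 2.68 was 0.35 without possible doublets. Ifitm3, Lgals3 (galectin-3) and Cd7 were at 114, 124 and 98.6 CPM in KO-DOX and at 25.7, 38.0 and 39.2 CPM in KO-CTRL, from 11, 13 and 29 KO-DOX cells. None of these 3 genes met the limits without dividing cells or without possible doublets. Il2ra was lower, at 82.8 CPM in KO-DOX against 188 CPM in KO-CTRL, where 1 cell held 41 of 168 UMIs. The division genes Hist1h3e and Cenpf were higher and Hist1h1a lower; the remaining named genes, Myb and Sec24a, were lower with log2 folds of -1.06 and -1.01.

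With doxorubicin in the control genotype, Ifi206, Sidt1 and Hopx were lower and Il2 and Zbed5 higher in all 4 settings. Ifi206, an interferon-inducible gene, was at 24.3 CPM (13.3 to 40.8) in WT-DOX and 76.8 CPM (59.4 to 97.8) in WT-CTRL members (log2 -1.62). Sidt1, a lysosomal membrane protein, was at 33.0 CPM (19.9 to 51.5) in WT-DOX and 102 CPM (82.2 to 126) in WT-CTRL, and Hopx at 175 CPM (143 to 213) in WT-DOX and 276 CPM (242 to 313) in WT-CTRL, log2 folds of -1.61 and -0.65. Il2 was at 102 CPM in WT-DOX and 48.9 CPM in WT-CTRL, from 12 of 88 and 20 of 133 cells, and 1 WT-DOX cell held 39 of 59 UMIs. Zbed5 gave 2 UMIs in KO-DOX and 257 in WT-DOX, and 0 in KO-CTRL and 2 in WT-CTRL members, and WT-DOX stood apart likewise in 0-marker cells, with 228 CPM against at most 1.44 CPM elsewhere.

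Interferon gamma and other effector genes were lower in WT-DOX members before dividing cells were left out. Ifng was at 34.7 CPM (21.2 to 53.6) in WT-DOX and 96.6 CPM (77.0 to 119.8) in WT-CTRL, and its log2 fold of -1.45 was 0.02 without dividing cells. Nkg7 was at 36.5 CPM in WT-DOX and 113 CPM in WT-CTRL members (log2 -1.60, and -0.80 without dividing cells, short of the limits). Of 9 tested Th1 genes 3 were lower (Ccl5, Hopx and Ifng) and 1 higher (Il2), with a median log2 fold of -0.31 beside -0.01 over all genes. Egr1 and Nampt, an early response factor and an enzyme of NAD synthesis, were lower with log2 folds of -1.40 and -1.22. Igfbp4, Hist2h2ac, Clspn and Chchd10 were higher, with log2 folds from 1.39 for Chchd10 to 1.60 for Igfbp4. Single WT-DOX cells held 27 of 50 Igfbp4, 68 of 109 Hist2h2ac, 12 of 54 Clspn and 8 of 52 Chchd10 UMIs. Of 15 S phase genes 5 were higher and 0 lower. Of 18 tested interferon genes 3 were lower in WT-DOX (Bst2, Ifi206 and Isg15) and 0 higher, with a median log2 fold of -0.59.

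Between the genotypes without doxorubicin, Cxcl10 was lower and Cmah and Hnrnpa0 were higher in KO-CTRL in all 4 settings. Cxcl10, a ligand of Cxcr3, was at 54.8 CPM (40.5 to 72.5) in KO-CTRL and 125 CPM (102 to 151) in WT-CTRL members (log2 -1.17), with 35 of 107 WT-CTRL UMIs in 1 cell. Cmah, a sialic acid hydroxylase, was at 107 CPM (87.0 to 131) in KO-CTRL and 50.1 CPM (36.2 to 67.4) in WT-CTRL. Hnrnpa0, an RNA-binding protein, was at 145 CPM in KO-CTRL and 54.7 CPM in WT-CTRL members. WT-CTRL was the lowest library for Hnrnpa0 in members, 0-marker, follicular, Foxp3+ and CD8 cells alike, with 52.6 CPM in follicular cells and 54.9 CPM in 0-marker cells. Cxcr6 was at 115 CPM (94.0 to 139.7) in KO-CTRL and 60.5 CPM (45.2 to 79.4) in WT-CTRL (log2 0.92), and without possible doublets it did not meet the limits. Ifitm2, Ppil1, Phf11b and Rgs16 were higher, with log2 folds of 1.85, 1.14, 1.12 and 1.03, and Cenpf, Cd74, Rrp1b, Gsr and Top2a lower, with -2.02 for Cenpf to -0.97 for Top2a. Of 18 tested interferon genes 1 was higher (Phf11b) and 0 lower.

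Between the genotypes under doxorubicin, effector and inhibitory receptor genes were higher in KO-DOX. The count of 195 genes was the largest of the 4 comparisons, but with 3 or more marker genes it was 89, against 159 for KO-CTRL over WT-CTRL, and without possible doublets it was 98, beside 80 to 92 for the others. Nkg7 was at 307 CPM (267 to 351) in KO-DOX and 36.5 CPM (22.6 to 55.7) in WT-DOX members, a log2 fold of 3.04 that was 2.92 without dividing cells. Tigit, an inhibitory receptor for CD155, was at 221 CPM (188 to 259) in KO-DOX and 78.1 CPM (57.0 to 105) in WT-DOX. Ctla4, Maf and Sh2d1a, the adaptor SAP, had log2 folds of 0.85, 0.85 and 0.84, and Isg15 and Pmaip1, which encodes the cell death protein Noxa, of 1.22 and 2.10. These 7 genes were higher, and Il2 (log2 -1.34) and Zbed5 lower, in all 4 settings. Most of the Il2 UMIs of WT-DOX came from 1 cell, so the Il2 difference rests largely on that cell.

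Of 11 tested Th1 genes 4 were higher in KO-DOX than in WT-DOX (Cxcr6, Hopx, Ifng and Il18r1) and Il2 lower, with a median log2 fold of 0.62 beside -0.03 over all genes. Ifng was at 92.8 CPM in KO-DOX and 34.7 CPM in WT-DOX, and its log2 fold of 1.39 was 0.43 without dividing cells. Of 12 tested genes of the PD-1 and checkpoint list 4 were higher (Cd274, Ctla4, Havcr2 and Tigit) and 0 lower, and of 25 memory genes 6 were higher (Id2, Itga4, Klf6, Lgals3, Ly6a and S100a6) and 0 lower. S100a6 had a log2 fold of 1.19, which was 0.44 without dividing cells and then missed the limits. Of 18 tested interferon genes 4 were higher (Ifi203, Ifi206, Isg15 and Slfn1) and 0 lower, with a median of 0.80, and without dividing cells 1 of 17 was higher, Isg15. Summed over the list of 28 genes, members were at 3385 CPM in KO-DOX and 2379 CPM in WT-DOX. WT-DOX was also the lowest of the 4 libraries for this sum in 0-marker, Foxp3+ and CD8 cells, at 2351, 2669 and 2206 CPM. Follicular cells differed, with 2951 CPM in WT-DOX, above 2906 in KO-DOX and 2857 in WT-CTRL and below 3135 in KO-CTRL. Of 15 S phase genes 8 were lower and 0 higher, and without dividing cells 0 of 6 tested were lower or higher. Ifitm3, Lgals3, Ifitm2, Cd74 and Hist1h3e were the other genes furthest up, with log2 folds of 3.34, 2.41, 2.27, 2.24 and 1.83, and Cd74 came to 0.01 without possible doublets. Hist1h1a, Igfbp4, Hist2h2ac, Dapl1 and Chchd10 were furthest down after Zbed5, with log2 folds of -2.12, -1.80, -1.71, -1.71 and -1.49. Single WT-DOX cells held 31 of 106 Hist1h1a, 27 of 50 Igfbp4, 68 of 109 Hist2h2ac, 28 of 47 Dapl1 and 8 of 52 Chchd10 UMIs.

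Targets of p53, the factor activated by DNA damage, were read in members as a separate list. Cdkn1a, the cell cycle inhibitor p21, was at 77.1 CPM in KO-DOX and 81.6 in WT-DOX, and 35.8 in KO-CTRL and 31.4 in WT-CTRL members, and at 4.26 to 9.67 CPM in 0-marker cells. It came from 20 cells in KO-DOX and 11 in WT-DOX, and 21 in KO-CTRL and 16 in WT-CTRL. KO-DOX was 2.15 (1.37 to 3.45) times KO-CTRL and WT-DOX 2.60 (1.58 to 4.33) times WT-CTRL. One WT-DOX cell held 22 of 47 UMIs, and without possible doublets the log2 folds of 1.09 in KO and 1.35 in WT came to 0.07 and 0.07. Ccng1, cyclin G1, was at 240.0 CPM in KO-DOX and 252 in WT-DOX, and 173 in KO-CTRL and 143 in WT-CTRL, and the doxorubicin ratio was 1.38 (1.11 to 1.73) in KO and 1.76 (1.37 to 2.25) in WT. Bax, a cell death effector, was at 183 CPM in KO-DOX and 198 in WT-DOX, and 158 in KO-CTRL and 147 in WT-CTRL, and Mdm2, the ligase that degrades p53, at 85.7 CPM in KO-DOX and 86.8 in WT-DOX, and 90.6 in KO-CTRL and 54.7 in WT-CTRL.

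Bbc3, which encodes the cell death protein Puma, was lower in members than in 0-marker cells. It was at 21.4 CPM in KO-DOX and 22.6 in WT-DOX, and 16.8 in KO-CTRL and 5.82 in WT-CTRL members. In 0-marker cells it was at 48.0 CPM in KO-DOX and 61.0 in WT-DOX, and 46.6 in KO-CTRL and 28.1 in WT-CTRL. Its doxorubicin ratio in members was 1.28 (0.582 to 2.80) in KO and 3.88 (1.30 to 13.9) in WT, from 15 and 15 UMIs in KO-DOX and KO-CTRL and from 13 and 5 in WT-DOX and WT-CTRL. Summed over 26 targets, the doxorubicin ratio in members was 1.19 (1.10 to 1.29) in KO and 1.35 (1.23 to 1.47) in WT, beside 1.03 (0.983 to 1.08) and 1.16 (1.11 to 1.21) in 0-marker cells, 1.18 (1.11 to 1.26) and 1.30 (1.22 to 1.40) in follicular cells and 1.24 (1.14 to 1.35) and 1.63 (1.51 to 1.76) in Foxp3+ cells. In CD8 cells these ratios were 0.997 (0.976 to 1.02) and 1.14 (1.12 to 1.17). Without doxorubicin, KO-CTRL members were at 1.16 (1.07 to 1.26) times WT-CTRL members, near the doxorubicin ratio of 1.19 in KO. By gene, 1 of 14 tested targets was higher in KO-DOX than KO-CTRL (Cdkn1a), and 3 of 13 in WT-DOX than WT-CTRL (Ccng1, Cdkn1a and Fas). In either comparison 0 were lower. The median log2 folds were 0.25 in KO and 0.37 in WT, beside 0.21 for KO-CTRL over WT-CTRL, where 0 of 13 targets were higher or lower. Without dividing cells 0 of 13 targets were higher and Gadd45a was lower in KO, with a median of 0.03, and 0 of 10 were higher or lower in WT. Without possible doublets 0 of 17 targets were higher in KO and 2 of 10 in WT (Ccng1 and Fas). With 3 or more marker genes the median over 8 tested targets in WT was -0.12. The summed ratios over these 3 settings were 1.03 to 1.16 in KO and 1.18 to 1.41 in WT.

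**Figure D5:**
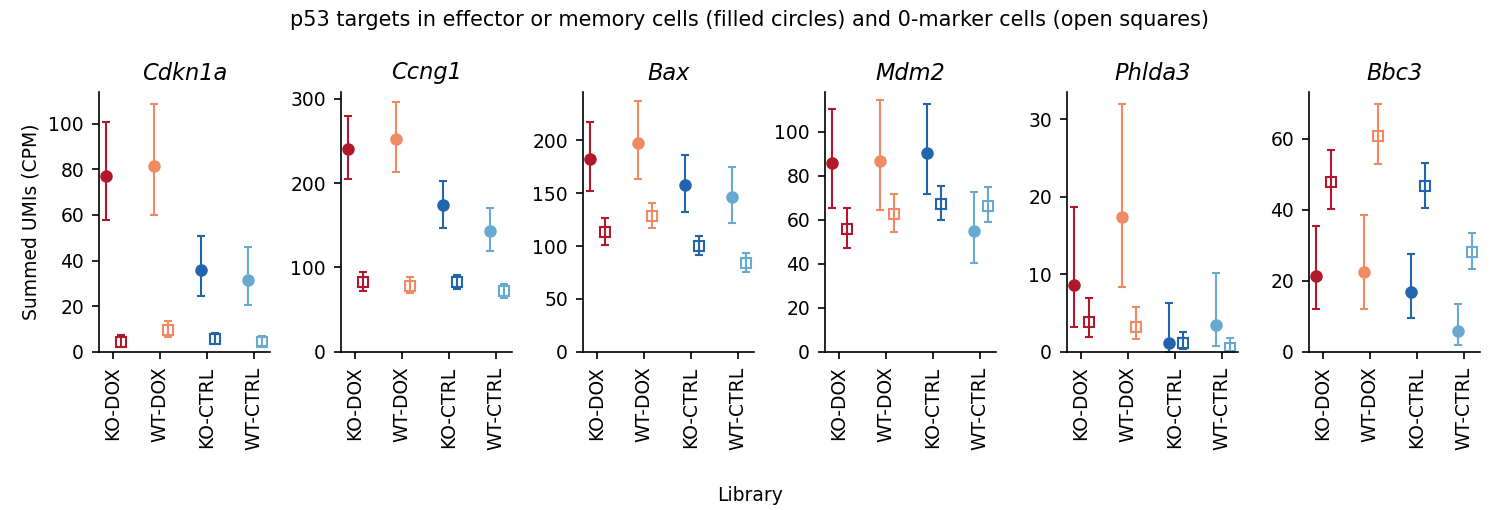
Level (y axis, CPM) of 6 p53 targets in each library (x axis) in effector or memory cells (filled circles) and 0-marker cells (open squares), with exact Poisson 95% intervals. Cdkn1a and Ccng1 lie higher in the doxorubicin libraries and higher in members than in 0-marker cells, and Bbc3 lies lower in members in all 4 libraries.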

How the data were processed

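The authors deposited UMI counts per gene and barcode for 4 libraries made with a SeekOne DD 5' kit, per the labels' protocols. Per the submitters' processing notes the genome was mm10; the sources used here name no aligner or counter. The 4 libraries held 37754389 to 47081849 UMIs over 48597 barcodes, and 0 count columns of other samples were present.

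Members, gene lists and tests were chosen with earlier results of these data known. Counts of the members of a library were summed, and a fold is on the log2(CPM + 1) scale. The 14 genes of the rule were left out of counts of genes. Intervals (95%) cover counting error only; UMIs of 1 cell are not independent. No doublet caller was run; possible doublets were left out in an alternative. Shares compared across depths were also taken after thinning each cell to 2000 UMIs. The counting of genes was tested on simulated Poisson counts with known folds. Their UMIs were independent, so that test does not cover genes with many UMIs in 1 cell. Python 3.11.15, numpy 2.4.6, scipy 1.17.1, pandas 2.3.3 and matplotlib 3.10.9 were used. Coordinates come from GENCODE M21 (GRCm38).

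Named genes were every Th1, Th2, Th17 and other helper gene, the 12 largest differences in each direction from 0-marker cells and the 6 largest in each direction between libraries at 50 CPM or more, up to 3 of each list past the fold, and 8 fixed genes. T cell receptor V segments and ribosomal and mitochondrial genes were not named by it, and some genes it covers are not reported here. Klrd1, Klrc1, Tyrobp, Gzma, Prf1, Csf2, Cd40lg, Itgae, Icos, Ascl2, Cd44, Il2rb and Hnrnpa0's levels in other cells, the genes at 0 in other cell types' lists, and genes that met the limits in every setting were added after their values were seen. So were the alternatives requiring a Cd3 UMI and leaving out cells with Mki67 or Top2a. The other alternatives concern the number of marker genes, the markers, Cd4, depth, cell filters, scaling, pseudocount, level, fold and each library.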

Additional observations from a re-analysis of the deposited data

Results flagged for a closer look

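The share of members in the gated helper cells was flagged because doxorubicin and its control treatment stood in a ratio above 1 in KO and below 1 in WT, and the first was 1.65 times the second. With at least 2 Cd4 UMIs asked for, the ratio in WT was 1.03 and the first was 1.21 times the second (0.757 to 1.92), so the opposite directions were lost. The difference rests on 1 library in each of 4 groups and was not tested over mice.

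Nkg7 was flagged because its log2 fold with doxorubicin was 0.86 in KO and -1.60 in WT members, with counting intervals apart in both. Rrm2, a subunit of ribonucleotide reductase that serves DNA synthesis, had log2 folds of -0.62 in KO and 0.85 in WT. Hist1h1a, a linker histone gene, had log2 folds of -1.23 in KO and 0.87 in WT, and 1 KO-CTRL cell held 32 of 88 UMIs and 1 WT-DOX cell 31 of 106. Cd74 had log2 folds of 2.68 in KO and -0.79 in WT, and 1 KO-DOX cell held 362 of 846 Cd74 UMIs and 1 WT-CTRL cell 162 of 380. A T cell receptor beta V segment, Trbv31, had log2 folds of -1.37 in KO and 1.13 in WT. None of these differences between the genotypes was tested.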

How the results depend on the processing

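No paired analysis was possible because each group is 1 library. Of 147 recomputed values 117 stayed within the set margin, 30 moved, and 0 share ratios whose reported interval lay clear of 1 changed direction; the cause was not tested. With 3 or more marker genes, the share ratios were 0.565 for WT-DOX over WT-CTRL, 2.35 for KO-DOX over WT-DOX and 2.51 for the doxorubicin ratio in KO over WT. That last ratio was 2.39 with Itgb1 left out of the rule. With at least 2 Cd4 UMIs, WT-DOX over WT-CTRL was 1.03, on the other side of 1 from its 0.788, the doxorubicin ratio in KO over WT was 1.21 (0.757 to 1.92) and KO-CTRL over WT-CTRL was 1.37. That last ratio, 1.05, was below 1 with 3 or more marker genes (0.938), after thinning (0.973) and without Itgb1 (0.895) or Ahnak (0.968). The share of members with Tbx21, 9.41%, was 15.05% with 3 or more marker genes, 4.03% with barcodes thinned to 2000 UMIs, 7.01% without possible doublets and 5.96% without dividing cells, and 7.96% to 10.5% with 1 library left out. Gata3, 25.9%, was 12.1% after thinning and 21.7% without dividing cells, and 22.1% (KO-CTRL left out) to 27.6% with 1 library left out. Thinning in this section came before the rule, which then chose fewer members. The thinned shares given earlier thinned members that were already chosen, so the values differ.

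Genes higher than in 0-marker cells numbered 211 after thinning, 360 without possible doublets, 392 at 50 CPM, 381 at 2-fold and 316 without dividing cells, against 625. Genes lower numbered 66, 76 and 64 after thinning, without possible doublets and without dividing cells, 83 at 2-fold and 116 with the mean of the cells' own CPM, against 211. With 1 library left out they were 669 to 769 and 235 to 252.

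Between libraries, the count without dividing cells was 64 for KO-DOX over KO-CTRL, 67 for WT-DOX over WT-CTRL and 100 for KO-DOX over WT-DOX. With 3 or more marker genes it was 85 for WT-DOX over WT-CTRL, 159 for KO-CTRL over WT-CTRL and 89 for KO-DOX over WT-DOX, and 98 for the last without possible doublets. The share of counted genes that were higher, 50.3% in KO-DOX over WT-DOX, was 61.0% with median-of-ratios scaling.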
